A study of Mus musculus with 21 samples.

Results

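The genes described here encode 10 receptors and ligands with which brain cells recognise and take up dying cells, lipids and debris. They are the TAM receptor kinases Axl, Mertk and Tyro3, the bridging ligands Gas6, Pros1 and Mfge8, and the scavenger and pattern receptors Cd36, Msr1, Cd93 and Cd14. They were chosen by name, with earlier results of these data known. Each symbol was matched to its Ensembl mouse gene, so that all 10 were found among the 55401 genes of the count table. Their levels were followed in bulk RNA from the forebrains of 21 mice. All of these mice were homozygous for a human APOE allele in place of mouse Apoe. The parental groups were 3 E2H (APOE2), 3 E3H (APOE3) and 3 E4H (APOE4) mice on a C57BL6 background, aged 9 to 10 months. A further 4 mice of each line, called PS/E4H, PS/E3H or PS/E2H by their allele, also carried the PS19 transgene, which expresses human tau with the P301S mutation under the mouse prion promoter, and were killed when their hindlimbs were paralyzed. The PS19 line was kept on a B6/C3H background, so the transgene, paralysis, age at death and background alleles cannot be told apart in a comparison of PS19 with parental mice. All mice were male except 1 E4H, 1 PS/E2H and 2 PS/E4H mice, and the labels do not give the sex of a mouse, so that of the comparisons with a parental line PS/E3H against E3H was the one made in males alone. Neither human APOE nor human tau RNA was analysed here, so the counts do not check the genotypes.

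Dying cells expose phosphatidylserine on their surface. Gas6 and protein S (Pros1) bind this lipid with 1 end and a TAM kinase with the other, Gas6 serving all the TAM receptors and protein S serving Tyro3 and Mertk. Mfge8 bridges the same lipid to the integrins of phagocytes. In the brain Axl and Mertk are known from microglia, Mertk also from astrocytes, and Tyro3 mainly from neurons. Cd36 and Msr1 are scavenger receptors of macrophages that take up oxidised lipoproteins. Cd93 is a C-type lectin of endothelial and myeloid cells, and Cd14 is the co-receptor that hands lipopolysaccharide to Tlr4.

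Positions are those of GRCm38 (GENCODE M21). Axl (ENSMUSG00000002602) lies on chromosome 7 at 25757273 to 25788705, 6.06 Mb from Apoe, the gene replaced in these lines, and Mfge8 (ENSMUSG00000030605) on the same chromosome at 79133768 to 79149060. Mertk (ENSMUSG00000014361) lies on chromosome 2 at 128698956 to 128802894, Tyro3 (ENSMUSG00000027298) at 119797733 to 119818104 and Cd93 (ENSMUSG00000027435) at 148436640 to 148443563 of the same chromosome. Gas6 (ENSMUSG00000031451) is at 13465374 to 13494490 and Msr1 (ENSMUSG00000025044) at 39581685 to 39642673 of chromosome 8. Pros1 (ENSMUSG00000022912) is at 62854307 to 62929346 of chromosome 16 and Cd36 (ENSMUSG00000002944) at 17781690 to 17888801 of chromosome 5. Gas6 overlaps Tmem255b on the other strand, which stood at 0.430 to 1.78 CPM against at least 83.4 CPM for Gas6. Mertk overlaps the antisense gene Gm14011, which had 0 counts in every mouse. It also overlaps the small nucleolar RNA gene Gm23172 on its own strand, whose counts were not examined. Of the 50-base windows of their transcripts, Cd93 shared 0.604% with another gene and the other members shared 0%.

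The 3 TAM receptors are shown with their promoters because Axl and Mertk rose in PS19 mice and Tyro3 did not. Each sequence runs from 250 bases before to 50 bases after the RefSeq start of the gene (GRCm38.p6, 5′ to 3′), with every CpG in capitals. RefSeq and GENCODE place the start of Tyro3 differently, so its window lies wholly inside the gene span given above. The same holds for Cd36, whose sequence is not shown.
Axl (chr7:25788684-25788983, minus strand): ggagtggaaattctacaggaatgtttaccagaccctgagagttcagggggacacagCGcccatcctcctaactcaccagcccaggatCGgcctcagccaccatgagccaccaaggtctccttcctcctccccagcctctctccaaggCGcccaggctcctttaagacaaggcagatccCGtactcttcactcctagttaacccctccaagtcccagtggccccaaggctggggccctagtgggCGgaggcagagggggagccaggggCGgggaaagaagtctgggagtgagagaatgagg
Mertk (chr2:128698665-128698964, plus strand): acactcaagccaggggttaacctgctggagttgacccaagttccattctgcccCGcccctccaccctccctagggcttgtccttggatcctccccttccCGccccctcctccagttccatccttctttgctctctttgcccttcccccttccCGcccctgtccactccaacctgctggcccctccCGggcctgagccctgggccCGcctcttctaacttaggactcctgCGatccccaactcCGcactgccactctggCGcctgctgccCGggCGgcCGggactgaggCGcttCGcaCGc
Tyro3 (chr2:119799264-119799563, plus strand): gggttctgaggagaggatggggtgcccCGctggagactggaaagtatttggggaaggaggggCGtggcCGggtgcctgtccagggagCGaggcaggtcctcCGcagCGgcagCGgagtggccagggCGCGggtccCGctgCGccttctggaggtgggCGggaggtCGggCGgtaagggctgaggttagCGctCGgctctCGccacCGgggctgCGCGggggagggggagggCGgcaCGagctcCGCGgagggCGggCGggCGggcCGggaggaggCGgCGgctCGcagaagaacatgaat
The Axl window held 6 CpG, the Mertk window 14 and the Tyro3 window 31, where the median of all 32851 mouse promoters of the table was 7. Axl thus had more CpG than 43.6% of promoters, Mertk more than 63.7% and Tyro3 more than 89.4%. The other members did not keep to this order. Pros1 and Gas6, which rose over all lines, held 21 CpG (more than 75.2% of promoters) and 17 (68.6%). Mfge8 and Cd36, which did not pass, held 17 (68.6%) and 3 (23.3%). A link between CpG content and the changes was not tested. The promoters of 7 members, without Msr1, Cd93 and Cd14, were searched on both strands for 4 motifs. GAGGAA is the core of the PU.1 site, which microglia and macrophages use, and CACGTG is the E-box. TGANTCA is the AP-1 site. TATAAA is a core promoter element. GAGGAA was found at -130 from the start in Axl and at -220 in Mfge8, these 2 matches overlap no other motif, and no other motif was found in these windows. Of all promoters, 28.3% hold GAGGAA, 7.81% TGANTCA, 7.15% CACGTG and 13.6% TATAAA.

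The libraries held 59265459 to 75932183 counts per mouse. Compared per length, as FPKM (fragments scaled for transcript length and sequencing depth), the ligands Gas6 and Mfge8 and the receptor Tyro3 were the most abundant members in the 9 parental mice. Gas6 was at 34.7 ± 2.47 FPKM (SD, n = 9), Mfge8 at 30.0 ± 4.48 and Tyro3 at 28.3 ± 2.09, and neighbours in this order overlapped. Axl (9.002 ± 0.786 FPKM) and Mertk (6.70 ± 0.670) followed, with overlapping values that lay wholly below those of Tyro3. Pros1 was at 3.60 ± 0.317 FPKM and stood apart from both neighbours. Cd14 (1.19 ± 0.254 FPKM), Cd93 (0.805 ± 0.218) and Cd36 (0.447 ± 0.155) formed a chain of overlapping neighbours, and Msr1 was lowest at 0.0265 ± 0.0220 FPKM, with 0 counts in 2 of the 21 mice.

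**Figure D1:**
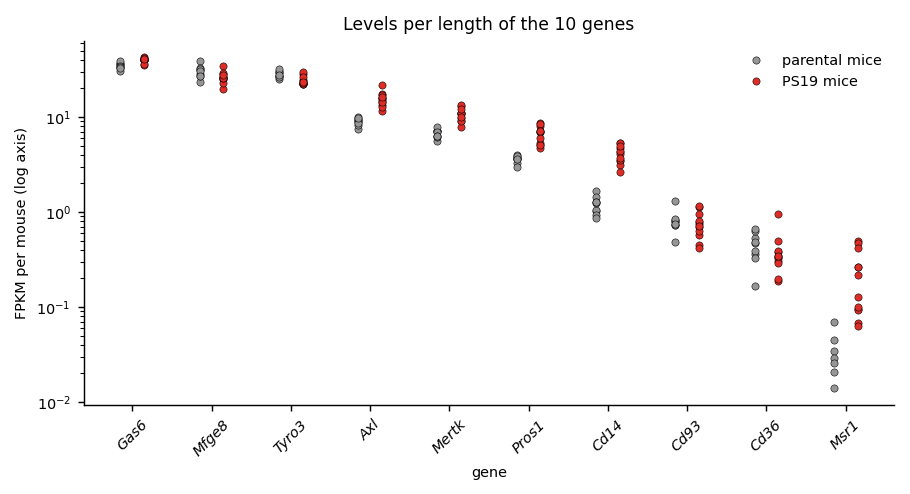
FPKM per mouse (log axis) of the 10 genes, ordered by their mean in parental mice (grey, 9 mice), beside PS19 mice (red, 12 mice). Gas6, Mfge8 and Tyro3 lie near 30 FPKM, Msr1 lies below 0.1 FPKM in parental mice, and 2 parental mice with no Msr1 counts cannot be drawn on this axis.

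Whether the clearance genes respond to tau on each APOE background was asked by setting each PS19 group against its parental line. Axl, Mertk and Cd14 rose in all 3 lines. Pros1 rose in PS/E3H and PS/E4H mice, and Gas6 and Msr1 passed the test in PS/E4H mice alone among the single lines. Tyro3 fell in PS/E4H mice. Mfge8, Cd36 and Cd93 passed in none of these comparisons. A gene passed at a Benjamini-Hochberg adjusted p under 0.05 in edgeR's quasi-likelihood test over all genes tested, and all 10 members were kept by the filter on low counts in each comparison.

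In PS/E2H mice 3 of the 10 members rose and 0 fell, where 0.669% of all genes tested rose and 0.0825% fell. In PS/E3H mice 4 rose and 0 fell, against 3.35% and 2.02% of all genes. In PS/E4H mice 6 rose and 1 fell, against 8.62% and 6.98% of all genes. With all 21 mice in 1 fit and APOE line as a term, 6 rose (Axl, Mertk, Gas6, Pros1, Msr1 and Cd14) and 1 fell (Tyro3), against 11.9% and 10.4% of all genes. A change of at least 2-fold, the limit the study added, was met by 1 member in PS/E2H mice (Cd14, 0.485% of all genes in either direction), 1 in PS/E3H mice (Cd14, 1.32%), 3 in PS/E4H mice (Pros1, Msr1 and Cd14, 2.98%) and 2 over all lines (Msr1 and Cd14, 2.61%). These shares moved with single mice: the share of all genes that passed in either direction was 0.752% in the APOE2 line and 0.146% (without E2H replicate 1) to 0.695% (without PS/E2H replicate 4) with 1 mouse left out. In the APOE3 line it was 5.37% and 0.522% (without E3H replicate 1) to 12.4% (without PS/E3H replicate 1), and in the APOE4 line 15.6% and 5.54% (without E4H replicate 2) to 16.5% (without PS/E4H replicate 3). The members' own counts ran from 0 to 3, 2 to 7 and 5 to 7 in these fits. The median log2 fold change of the members was 0.37 in the APOE2, 0.39 in the APOE3 and 0.48 in the APOE4 line, where the median of all genes was -0.015, -0.0043 and -0.0023. In bulk tissue a change in the number of cells that carry a transcript and a change in the RNA per cell cannot be told apart.

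**Figure D2:**
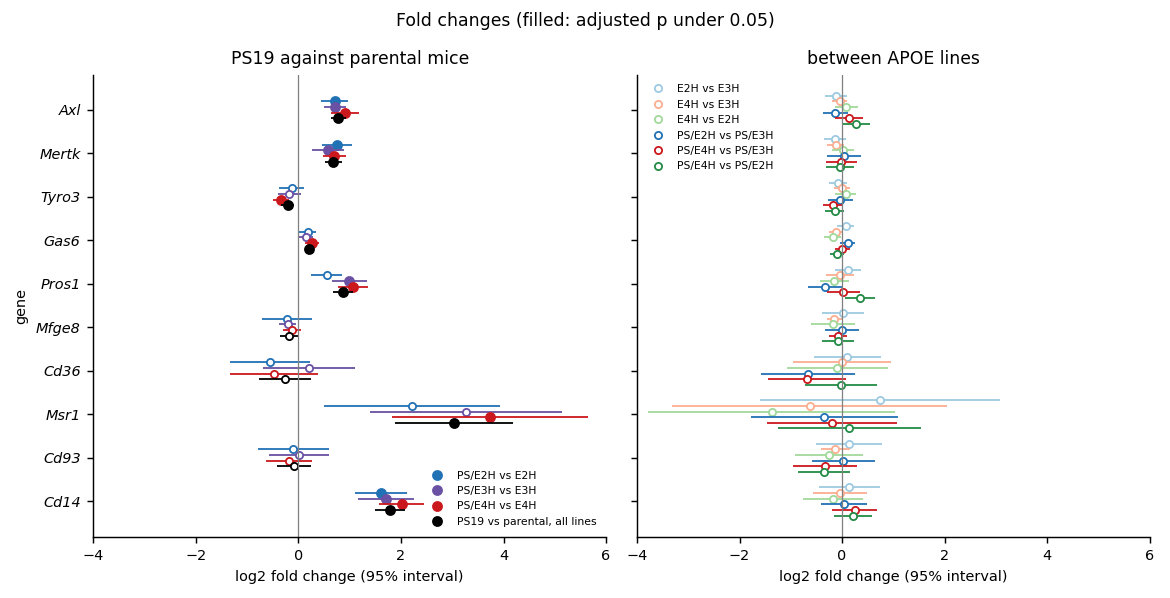
Log2 fold changes with 95% intervals for the 10 genes, PS19 against parental mice (left) and between APOE lines (right), filled where the adjusted p was under 0.05. Axl, Mertk and Cd14 are filled in every PS19 comparison, Msr1 has the widest intervals, and no point is filled between APOE lines.

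Of the TAM receptors, Axl was at 41.0, 49.2 and 50.2 CPM in the 3 E2H mice and at 80.3, 75.98, 86.8 and 64.0 CPM in the 4 PS/E2H mice. Axl in E3H mice was at 51.9, 51.6 and 49.2 CPM, and in PS/E3H mice at 70.7, 80.6, 90.8 and 93.6 CPM. Axl in E4H mice was at 48.2, 46.9 and 52.6 CPM, and in PS/E4H mice at 118, 88.3, 80.3 and 85.8 CPM. Every PS19 mouse lay above every parental mouse, and PS/E4H replicate 1 was the highest of all. Axl's log2 fold change against the parental line was 0.71 (SE 0.120, adjusted p = 0.0326) in the APOE2 line, 0.71 (SE 0.0950, adjusted p = 0.00450) in the APOE3 line and 0.91 (SE 0.121, adjusted p = 0.00148) in the APOE4 line. Over all lines Axl was higher by 1.72-fold (95% interval 1.55 to 1.90, adjusted p = 7.72e-08). In the APOE2 line the call was narrow: without any 1 of the mice other than PS/E2H replicate 4 the adjusted p was 0.0580 to 0.145, with a log2 fold change of 0.62 to 0.77. It was also lost with no filter on low counts (adjusted p = 0.0580) and with limma on log2(FPKM + 1) (adjusted p = 0.0506).

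Mertk, a receptor of phagocytes that acts in the uptake of dying cells, behaved in the same direction. Mertk was at 33.3, 28.5 and 29.1 CPM in the 3 E2H mice and at 46.9, 44.1, 51.3 and 62.9 CPM in the 4 PS/E2H mice. Mertk in E3H mice was at 32.8, 31.5 and 35.4 CPM, and in PS/E3H mice at 51.7, 36.4, 59.6 and 51.7 CPM. Mertk in E4H mice was at 32.2, 29.5 and 29.7 CPM, and in PS/E4H mice at 51.01, 43.4, 58.0 and 45.8 CPM. No PS19 mouse fell within the parental range, and PS/E3H replicate 2 was the nearest to it. Mertk's log2 fold change against the parental line was 0.75 (SE 0.135, adjusted p = 0.0424) in the APOE2 line, 0.57 (SE 0.140, adjusted p = 0.0422) in the APOE3 line and 0.70 (SE 0.101, adjusted p = 0.00219) in the APOE4 line, and over all lines Mertk was higher by 1.60-fold (95% interval 1.43 to 1.79, adjusted p = 1.74e-06). The PS/E2H call did not hold without E2H replicate 1, 2 or 3 or PS/E2H replicate 1 or 3 (adjusted p = 0.0893 to 0.205), and the PS/E3H call did not hold without E3H replicate 1, 2 or 3 or PS/E3H replicate 3 or 4 (adjusted p = 0.0786 to 0.163). Mertk was also lost in PS/E2H and PS/E3H mice with no filter on low counts (adjusted p = 0.0658 and 0.0768), with limma on log2(FPKM + 1) (0.0616 and 0.0906) and with limma on log2(FPKM + 0.1) (0.0561 and 0.0848), and held in both with DESeq2.

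Tyro3, the TAM kinase of neurons, did not rise in any line. Tyro3 was at 169, 197 and 184 CPM in the 3 E2H mice and at 169, 197, 148 and 158 CPM in the 4 PS/E2H mice. Tyro3 in E3H mice was at 193, 187 and 198 CPM, and in PS/E3H mice at 204, 149.8, 155 and 177 CPM. Tyro3 in E4H mice was at 178, 212 and 185 CPM, and in PS/E4H mice at 150.0, 151, 156 and 152 CPM. The PS/E4H mice were tightly grouped and all below the E4H mice, whereas the groups overlapped on the other backgrounds. Tyro3's log2 fold change against the parental line was -0.13 (SE 0.108, adjusted p = 0.753) in the APOE2 line, -0.18 (SE 0.0999, adjusted p = 0.340) in the APOE3 line and -0.34 (SE 0.0680, adjusted p = 0.00991) in the APOE4 line. Over all lines Tyro3 was at 0.863-fold (95% interval 0.794 to 0.938, adjusted p = 0.0105) of the parental level. In PS/E3H mice the adjusted p was 0.0289 without PS/E3H replicate 1, the highest mouse of that group.

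**Figure D3:**
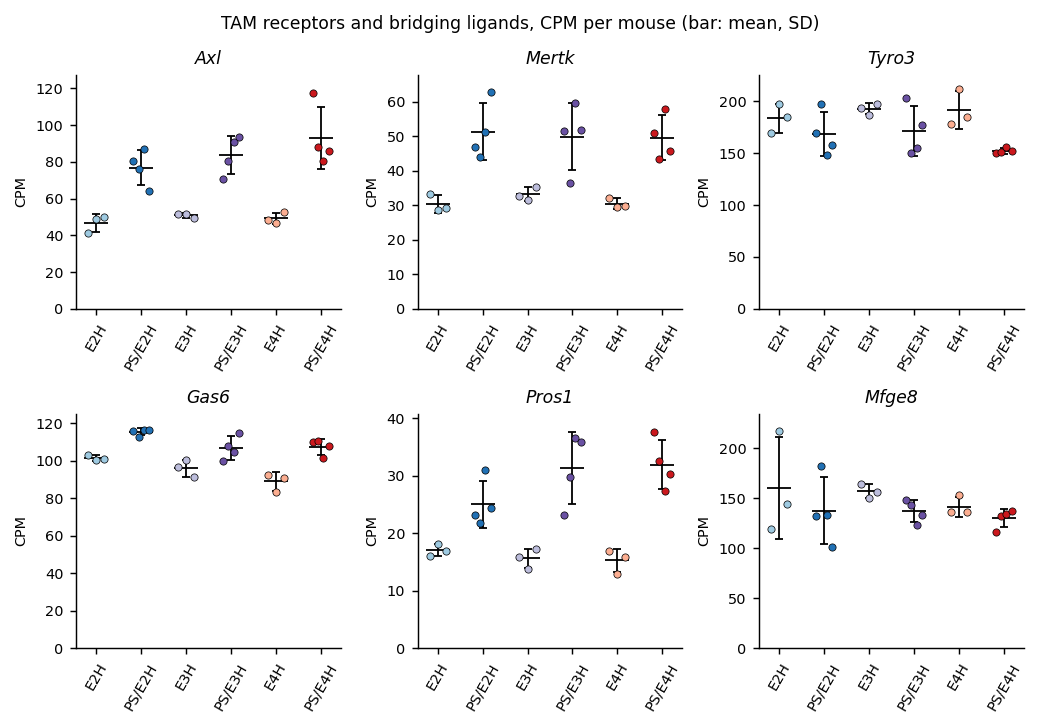
TMM-normalised CPM per mouse (points) with group mean and SD (bars) for the TAM receptors and the bridging ligands, each axis from 0. Axl, Mertk and Pros1 show PS19 mice above parental mice in every line, and Mfge8 shows 1 high E2H mouse at 217 CPM.

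The ligands of these kinases differed in the size of their change. Pros1 is the anticoagulant protein S. Pros1 was at 16.1, 18.1 and 16.8 CPM in the 3 E2H mice and at 23.1, 21.8, 30.9 and 24.3 CPM in the 4 PS/E2H mice. Pros1 in E3H mice was at 15.9, 13.8 and 17.1 CPM, and in PS/E3H mice at 23.1, 29.8, 36.5 and 35.8 CPM. Pros1 in E4H mice was at 16.9, 12.95 and 15.8 CPM, and in PS/E4H mice at 37.6, 32.5, 27.4 and 30.2 CPM. All PS19 mice lay above all parental mice. Pros1's log2 fold change against the parental line was 0.55 (SE 0.136, adjusted p = 0.123) in the APOE2 line, 0.99 (SE 0.154, adjusted p = 0.00902) in the APOE3 line and 1.06 (SE 0.129, adjusted p = 0.000879) in the APOE4 line, so that the PS/E2H mice, higher in each of the 4 animals, did not pass with edgeR, and did with DESeq2 (adjusted p = 0.0106). Over all lines Pros1 was higher by 1.83-fold (95% interval 1.59 to 2.10, adjusted p = 1.05e-06). The PS/E3H call did not hold without E3H replicate 1 (adjusted p = 0.0592).

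Gas6, the ligand of all TAM receptors, changed little. Gas6 was at 103, 100.2 and 101.2 CPM in the 3 E2H mice and at 116, 113, 117 and 117 CPM in the 4 PS/E2H mice. Gas6 in E3H mice was at 96.5, 100.4 and 91.3 CPM, and in PS/E3H mice at 99.7, 108, 105 and 115 CPM. Gas6 in E4H mice was at 92.6, 83.4 and 90.8 CPM, and in PS/E4H mice at 110.1, 111, 101.4 and 108 CPM. PS19 and parental mice overlapped in the APOE3 line, where PS/E3H replicate 1 lay among the E3H mice, and did not overlap in the other lines. Gas6's log2 fold change against the parental line was 0.18 (SE 0.0719, adjusted p = 0.393) in the APOE2 line, 0.14 (SE 0.0681, adjusted p = 0.267) in the APOE3 line and 0.27 (SE 0.0613, adjusted p = 0.0165) in the APOE4 line, and over all lines Gas6 was higher by 1.15-fold (95% interval 1.09 to 1.21, adjusted p = 0.000198). Without E4H replicate 2, the lowest mouse, the PS/E4H call did not hold (adjusted p = 0.0871).

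Mfge8, the bridge to integrins, passed in no comparison. Mfge8 was at 119, 217 and 144 CPM in the 3 E2H mice and at 132, 182, 133 and 102 CPM in the 4 PS/E2H mice. Mfge8 in E3H mice was at 165, 151 and 157 CPM, and in PS/E3H mice at 149, 143, 123 and 133 CPM. Mfge8 in E4H mice was at 136, 153 and 136 CPM, and in PS/E4H mice at 117, 132, 134 and 137 CPM. The PS/E3H mice lay below all E3H mice, and the groups overlapped in the other lines. E2H replicate 2 stood highest of all mice, and this library also had the highest share of mitochondrial counts (10.9%, where the range over all mice was 7.25% to 10.9%). Mfge8's log2 fold change against the parental line was -0.23 (SE 0.218, adjusted p = 0.802) in the APOE2 line, -0.21 (SE 0.0764, adjusted p = 0.143) in the APOE3 line and -0.13 (SE 0.0746, adjusted p = 0.296) in the APOE4 line. Without E2H replicate 2 the value in PS/E2H mice was 0.056, and without PS/E3H replicate 1 the value in PS/E3H mice was -0.25 with an adjusted p of 0.0459.

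Of the scavenger and pattern receptors, Cd14 (ENSMUSG00000051439, chromosome 18, 36725067 to 36726798) came first of the 10 genes by adjusted p in the APOE2 and APOE4 lines. Cd14 was at 3.16, 2.10 and 2.01 CPM in the 3 E2H mice and at 6.59, 6.02, 8.87 and 8.31 CPM in the 4 PS/E2H mice. Cd14 in E3H mice was at 2.67, 2.21 and 1.70 CPM, and in PS/E3H mice at 5.15, 6.52, 7.41 and 9.95 CPM. Cd14 in E4H mice was at 1.65, 2.38 and 2.37 CPM, and in PS/E4H mice at 9.94, 8.37, 9.64 and 6.70 CPM. The PS19 and parental mice were clearly separated in every line. Cd14's log2 fold change against the parental line was 1.61 (SE 0.229, adjusted p = 0.0153) in the APOE2 line, 1.71 (SE 0.245, adjusted p = 0.00641) in the APOE3 line and 2.01 (SE 0.199, adjusted p = 0.000285) in the APOE4 line. Over all lines Cd14 was higher by 3.44-fold (95% interval 2.82 to 4.20, adjusted p = 8.04e-09). The PS/E2H call did not hold without E2H replicate 3 (adjusted p = 0.0944).

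Msr1, the macrophage scavenger receptor, had few counts. There were 18, 31 and 8 counts in E2H, 24, 0 and 15 in E3H and 13, 11 and 0 in E4H mice. There were 35, 40, 210 and 54 counts in PS/E2H, 33, 95, 110 and 228 in PS/E3H and 175, 114, 41 and 45 in PS/E4H mice. PS/E2H replicate 3 and PS/E3H replicate 4 held the most, and scaled for depth the PS/E2H and E2H mice overlapped, since E2H replicate 2 was at 0.548 and PS/E2H replicate 1 at 0.504 CPM. Msr1's log2 fold change against the parental line was 2.22 (SE 0.769, adjusted p = 0.306) in the APOE2 line, 3.27 (SE 0.845, adjusted p = 0.0511) in the APOE3 line and 3.73 (SE 0.859, adjusted p = 0.0171) in the APOE4 line. Over all lines Msr1 was higher by 8.18-fold (95% interval 3.69 to 18.2, adjusted p = 0.000374). The PS/E4H call did not hold without E4H replicate 2 (adjusted p = 0.0711) or with limma on FPKM (adjusted p = 0.0676 and 0.119 with pseudocounts of 0.1 and 1), and Msr1 in PS/E3H mice passed without PS/E3H replicate 1 (adjusted p = 0.0109) or with DESeq2 (adjusted p = 0.0417). With DESeq2 Msr1 also passed in PS/E2H mice (adjusted p = 0.0414). The log2 fold change depended on single mice: in the APOE2 line it was 1.24 without PS/E2H replicate 3 and 2.96 without E2H replicate 2, in the APOE3 line 4.05 without E3H replicate 1, and in the APOE4 line 4.34 without E4H replicate 1.

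The fatty acid and lipoprotein receptor Cd36 was low and variable. Cd36 was at 1.84, 1.55 and 2.11 CPM in the 3 E2H mice and at 1.54, 0.769, 1.90 and 0.809 CPM in the 4 PS/E2H mice. Cd36 in E3H mice was at 1.53, 1.22 and 2.36 CPM, and in PS/E3H mice at 1.36, 1.34, 1.47 and 3.78 CPM. Cd36 in E4H mice was at 2.59, 0.650 and 1.90 CPM, and in PS/E4H mice at 1.29, 1.20, 1.17 and 1.29 CPM. The groups overlapped in every line. Cd36's log2 fold change against the parental line was -0.55 (SE 0.351, adjusted p = 0.654) in the APOE2 line, 0.21 (SE 0.404, adjusted p = 0.830) in the APOE3 line and -0.47 (SE 0.386, adjusted p = 0.461) in the APOE4 line. PS/E3H replicate 4 was far above its group, and without it the PS/E3H value was -0.31.

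Cd93, a lectin of endothelium and myeloid cells, showed no difference beyond the spread. Cd93 was at 9.50, 3.78 and 5.70 CPM in the 3 E2H mice and at 5.84, 4.32, 8.17 and 5.51 CPM in the 4 PS/E2H mice. Cd93 in E3H mice was at 5.93, 5.49 and 5.90 CPM, and in PS/E3H mice at 3.33, 6.79, 4.83 and 8.47 CPM. Cd93 in E4H mice was at 5.19, 5.27 and 5.37 CPM, and in PS/E4H mice at 5.85, 3.08, 4.73 and 4.95 CPM. E2H replicate 1 was the highest mouse and the groups overlapped in each line. Cd93's log2 fold change against the parental line was -0.10 (SE 0.308, adjusted p = 0.958) in the APOE2 line, 0.0074 (SE 0.264, adjusted p = 0.991) in the APOE3 line and -0.19 (SE 0.2003, adjusted p = 0.584) in the APOE4 line.

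**Figure D4:**
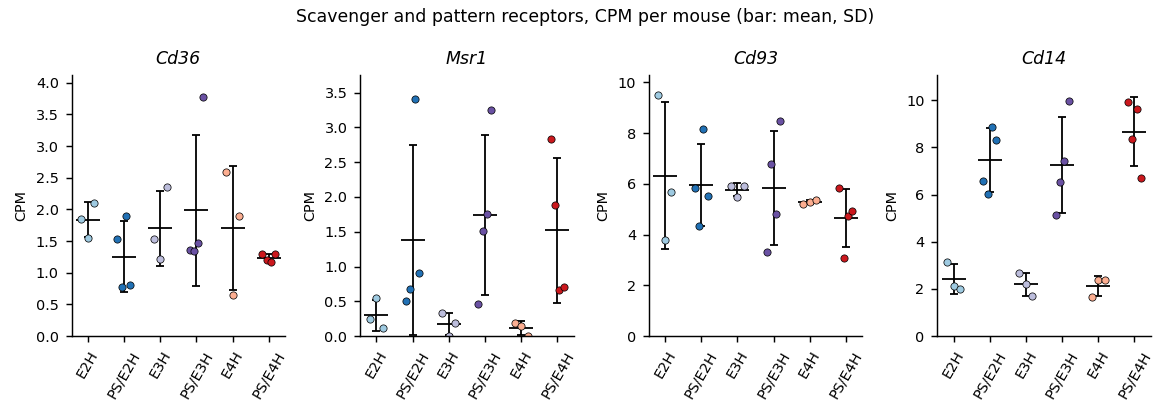
TMM-normalised CPM per mouse (points) with group mean and SD (bars) for Cd36, Msr1, Cd93 and Cd14, each axis from 0. Cd14 separates PS19 from parental mice in every line, and the highest Cd36 value, 3.78 CPM, is PS/E3H replicate 4.

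Whether the tau-associated difference itself depended on the APOE line was tested as an interaction between APOE line and PS19 genotype. The paper reports that PS/E3H mice reached paralysis later than PS/E2H and PS/E4H mice, and the groups differed in their number of females. In the interactions and between PS19 lines, APOE allele and age at death therefore cannot be told apart, and sex was not separated from them. No member passed in any of the 3 interactions (30 tests, smallest adjusted p = 0.405), where 0% of all genes passed in each by edgeR's quasi-likelihood test. At an unadjusted p under 0.05 there were 847 genes for APOE4 against APOE3, 1265 for APOE2 against APOE3 and 2223 for APOE4 against APOE2, and DESeq2 passed 9, 11 and 123 genes in that order, with 0 members among them. The member nearest to the threshold was Pros1, whose log2 change was 0.51 larger in the APOE4 than in the APOE2 line (95% interval 0.097 to 0.92). For Axl the same difference was 0.20 (95% interval -0.18 to 0.59), for Mertk -0.058 (-0.43 to 0.31, and -0.14 to 0.056 with 1 mouse left out) and for Cd14 0.40 (-0.24 to 1.04). A call in 1 line and not in another, as for Gas6, Tyro3 and Msr1, was thus not shown to differ between lines.

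Between APOE lines no member passed, with edgeR or with DESeq2, in any of the 6 comparisons. Among all genes 0.178% passed in E2H against E3H, 0.162% in E4H against E3H and 0.216% in E4H against E2H mice, and 0.113%, 0.0197% and 0.119% in PS/E2H against PS/E3H, PS/E4H against PS/E3H and PS/E4H against PS/E2H mice. Of the 60 tests of members, 3 had an unadjusted p under 0.05, 1 of 10 members in each of the comparisons where 6.67% (E4H against E3H), 12.4% (E4H against E2H) and 12.3% (PS/E4H against PS/E2H) of all genes did, which is near the background. These were Mfge8 in E4H against E3H mice (log2 fold change -0.15, 95% interval -0.29 to -0.010, adjusted p = 0.709), Gas6 in E4H against E2H mice (-0.18, -0.35 to -0.021, adjusted p = 0.374) and Pros1 in PS/E4H against PS/E2H mice (0.35, 0.066 to 0.64, adjusted p = 0.355). For the TAM receptors and ligands all log2 differences between lines were between -0.33 and 0.35, and their 95% intervals reached from -0.67 to 0.64. With the scavenger and pattern receptors included, the differences ran from -1.37 to 0.74. The lowest was Msr1 in E4H against E2H mice (95% interval -3.78 to 1.04). Cd36 in PS/E4H against PS/E3H mice was at -0.68 (-1.44 to 0.076). Differences of several-fold in such low genes are thus not excluded. The 2 genes of chromosome 7, Axl and Mfge8, passed in none of these comparisons.

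The wider pathway was read from lists of genes written for this purpose, with earlier results of these data known. Over all lines 11.9% of all genes rose and 10.4% fell. In the APOE2, APOE3 and APOE4 lines 0.669%, 3.35% and 8.62% of all genes rose and 0.0825%, 2.02% and 6.98% fell. Of 16 other receptors and signals for dying cells, 15 were tested over all lines, where 4 rose and 3 fell. In the single lines 1 of 14, 3 of 14 and 5 of 15 rose and 0, 1 and 2 fell (APOE2, APOE3 and APOE4). Itgb5, an integrin chain of the receptor that binds Mfge8, rose in all 3 lines (log2 fold change 0.67, 0.86 and 1.06). Of 16 genes of the engulfment machinery 7 rose and 0 fell over all lines. In the single lines 2, 3 and 4 rose and 0, 0 and 1 fell. Vav1, an exchange factor for Rac, rose in all 3 lines (0.78, 1.24 and 1.46). Of the other scavenger receptors 10 of 16 tested rose and 2 fell over all lines. In the single lines 3 of 15, 5 of 16 and 7 of 15 rose and 0 fell. Cxcl16 (1.64, 1.83 and 2.40), Cd68 (1.27, 1.86 and 2.15) and the collectin Colec12 (1.06, 0.95 and 0.995) rose in each line. Of 14 partners of Cd14, Cd36 and the TAM kinases 9 rose and 0 fell over all lines. In the single lines 1, 3 and 8 rose and 0 fell. Tlr1, a partner of Tlr2, rose in each line (2.03, 2.37 and 2.15).

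The calls of these 6 genes in PS/E2H mice were narrow, with adjusted p of 0.0274 for Itgb5, 0.0227 for Colec12, 0.0459 for Cd68 and 0.0424 for each of Vav1, Cxcl16 and Tlr1. Without E2H replicate 1, PS/E2H replicate 1 or PS/E2H replicate 3 none of the 6 passed in the APOE2 line, and 0 genes of each of the 4 lists rose there. With any 1 mouse left out their adjusted p in that line reached 0.171 for Itgb5, 0.0848 for Colec12, 0.223 for Cd68, 0.205 for Vav1, 0.158 for Cxcl16 and 0.210 for Tlr1. With no filter on low counts Vav1, Cxcl16, Cd68 and Tlr1 did not pass in PS/E2H mice either. Vav1, Cxcl16 and Tlr1 were also lost there with limma on log2(FPKM + 1) and on log2(FPKM + 0.1). Cd68 was lost with limma on log2(FPKM + 1), and Vav1 with a block for replicate number. In the APOE3 line 1 gene of each list rose without E3H replicate 1 or 3, and 5, 5, 6 and 4 genes, in the order of the lists, without PS/E3H replicate 1. In PS/E3H mice Vav1 and Colec12 were lost without E3H replicate 1, 2 or 3 (adjusted p of up to 0.0598 and 0.0766) and Cxcl16 without E3H replicate 1 or 3 (up to 0.0708), whereas Itgb5, Cd68 and Tlr1 passed with each mouse left out. Colec12 was also lost in PS/E3H mice with the block for replicate number and both limma fits (adjusted p of up to 0.0625). In PS/E4H mice and over all lines the 6 genes passed with each mouse left out. The median log2 fold change over all lines was 0.14 for the receptors and signals, 0.045 for the engulfment genes, 0.51 for the scavenger receptors and 0.44 for the partners, where the median of all genes was -0.0075.

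Markers of the cells that carry these receptors were read in the same fits, over all lines and then in the APOE2, APOE3 and APOE4 lines. Of all genes, 11.9% rose and 10.4% fell over all lines. In the single lines 0.669%, 3.35% and 8.62% rose and 0.0825%, 2.02% and 6.98% fell. The lists are short, and their counts were not tested against these shares. Over all lines 7 of 10 microglial markers rose (median log2 fold change 0.74), and 1, 6 and 8 rose in the single lines. Their summed FPKM was 125 to 149 in parental and 141 to 312 in PS19 mice. Of 7 markers of border-associated macrophages 6 rose (median 1.29), with 0, 3 and 4 in the single lines, from 2.06 to 4.12 summed FPKM in parental to 4.68 to 9.09 in PS19 mice. All 6 astrocyte markers rose, with Gfap in the list, with 1, 5 and 5 in the single lines, from 244 to 308 summed FPKM to 471 to 863. Of 7 endothelial markers 2 rose and 1 fell, with 0, 0 and 1 rising and 0, 1 and 1 falling in the single lines. Their summed FPKM was 27.4 to 38.1 in parental and 25.2 to 38.7 in PS19 mice. Of 6 neuronal markers 4 fell, with 0, 0 and 2 in the single lines, from 762 to 825 to 668 to 774. The neuronal count in the APOE4 line was 0 without E4H replicate 1, 2 or 3 or PS/E4H replicate 2. It was 3 without PS/E4H replicate 3. Without E3H replicate 1 or 3 the counts in the APOE3 line were 3 microglial, 0 macrophage and 1 astrocyte marker, and without PS/E2H replicate 4 the count in the APOE2 line was 3 microglial markers. None of the markers of these 5 cell types was at 0 in all mice of a group. The part of these cells in the changes of Axl, Mertk, Pros1, Cd14, Msr1 and Tyro3 was not tested.

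**Figure D5:**
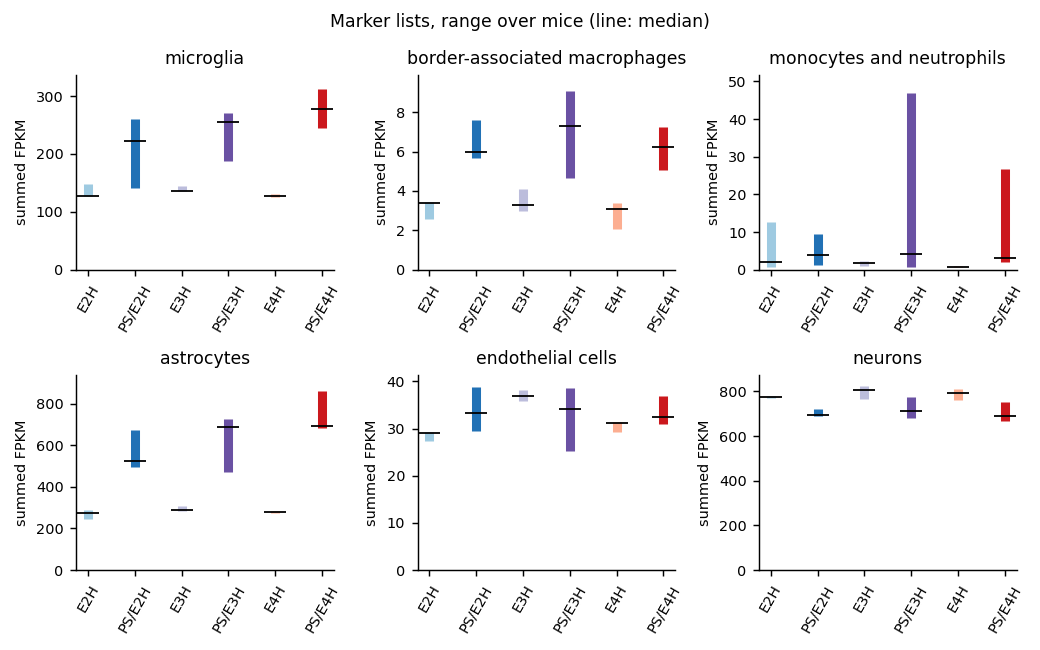
Summed FPKM of 6 marker lists, drawn as the range over the mice of each group with the median as a line, each axis from 0. Microglial, macrophage and astrocyte lists reach higher in PS19 mice, and the monocyte and neutrophil list is spread widely, up to 47.0 in 1 PS/E3H mouse.

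Monocyte and neutrophil markers were uneven between mice. Beside the counts that follow, 11.9% of all genes rose and 10.4% fell over all lines. In the APOE2, APOE3 and APOE4 lines 0.669%, 3.35% and 8.62% of all genes rose. These lists too are short, and their counts were not tested against the shares. Over all lines 2 of 8 rose (0 without E3H replicate 1, E4H replicate 1 or 2, PS/E3H replicate 4 or PS/E4H replicate 1, and 5 without E2H replicate 1), with 0, 0 and 1 in the APOE2, APOE3 and APOE4 lines, and their summed FPKM was 0.757 to 12.8 in parental and 0.632 to 47.0 in PS19 mice, highest in PS/E3H replicate 4 (47.0), PS/E4H replicate 1 (26.8) and E2H replicate 1 (12.8). These 3 mice were also the highest of their groups in Cd14 and Cd93. PS/E3H replicate 4 was also highest in Axl, Gas6, Cd36 and Msr1, and E2H replicate 1 in Mertk and Gas6. PS/E4H replicate 1 was also highest in Axl, Pros1, Msr1 and, by a small margin, Cd36. PS/E3H replicate 4 and PS/E4H replicate 1 were highest of their groups in summed microglial, border-associated macrophage and astrocyte markers as well. Without the 3 mice the same 7 members passed over all lines, Cd14 with a log2 fold change of 1.77 and Msr1 with 2.70. Other lists were as follows over all lines: 3 of 5 oligodendrocyte, 1 of 5 pericyte and 2 of 6 choroid plexus markers rose. Oligodendrocyte markers numbered 0, 5 and 4 in the APOE2, APOE3 and APOE4 lines, and 5 over all lines without PS/E2H replicate 4. Choroid plexus markers numbered 0 in each single line, and over all lines 1 to 4 with 1 mouse left out (4 without PS/E3H replicate 1 or PS/E4H replicate 1). Of markers of position, 3 of 5 forebrain, 1 of 4 cerebellar and 1 of 3 tested pituitary genes fell, and forebrain markers were at 104 to 171 summed FPKM in all mice.

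Within groups the members did not move as 1 set. Over the 45 pairs of members, Pearson's r of the deviations of log2 CPM from the group means over the 21 mice was -0.577 (Pros1 and Tyro3) to 0.695 (Axl and Pros1), and it was -0.167 for Axl and Mertk. The genes most like Axl in this measure, of 22826 genes, were Cd72 (r = 0.918), Cxcl16 (0.905) and St6gal1 (0.884). For Mertk they were Kcnn2 (0.926), Lpin3 (0.893) and Zhx3 (0.870), and for Cd14 Ncf4 (0.822), Gm21680 (0.808) and 4930478K11Rik (0.802). The points share library depth and RNA composition, and the correlations are given without a test.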

How the data were processed

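Stranded poly(A) libraries of forebrain RNA were sequenced by the authors, who trimmed reads with Cutadapt, aligned them with HISAT2 to GRCm38 (Ensembl release 101) and quantified genes with StringTie and ballgown. Tool versions, and how counts were derived from StringTie, are not given in the sources used here. The authors deposited whole-number counts per gene, not normalized, and FPKM values, scaled for length and depth.

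Each comparison of 2 groups was fitted on its own mice with edgeR 4.0.16 (R 4.3.3), using TMM, filterByExpr (minimum count 10, total 15) and the quasi-likelihood test, with Benjamini-Hochberg adjustment over all genes tested. Interactions used the 4 groups of 2 lines, and the fit over all lines used 21 mice with line as a term. No covariate for sex was used, since the labels do not give it and sex was not read from the counts. CPM are TMM-normalized. The edgeR test was tried on simulated counts for PS/E3H against E3H mice alone, with changes of at least 2-fold in genes not low in counts. Smaller changes, changes in genes with few counts, the interactions and the fit over all lines were not simulated. The 27 pairs of mice within groups differed by more than sampling noise (chi-square per gene 17.9 to 73.1). Alternatives were DESeq2 1.42.0, its size factors, no filter, limma 3.58.1 on log2(FPKM + 1) and log2(FPKM + 0.1), all 21 mice in the fit, each mouse left out, and a block for replicate number.

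All 10 members were named. Of each pathway list, up to 4 genes were named that passed in all 3 comparisons of PS19 with parental mice, by size of change over all lines. For members that passed in all 3, the 3 most similar genes were named. Members and lists were chosen with earlier results of these data known. Counting intervals were not used, since the spread between mice sets the error.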

Additional observations from a re-analysis of the deposited data

Results flagged for a closer look

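Within the groups of 4 PS19 mice, 30 sets of values (10 genes in 3 groups) were examined for a mouse far from the other 3 by Dixon's criterion, which chance passes in about 1 of 20 sets, and 3 were found. Cd36 was at 3.78 CPM in PS/E3H replicate 4, a gap of 0.948 of the range of its group, and this mouse also had the most monocyte and neutrophil marker RNA. Msr1 was at 3.41 CPM in PS/E2H replicate 3 (gap 0.860 of the range). Gas6 was at 113 CPM in PS/E2H replicate 2 (gap 0.890 of the range), below 3 mice that lay between 116 and 117 CPM.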

How the results depend on the processing

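Over all lines 7 members passed with every alternative and with each mouse left out (7 to 7 members), and 2 also met a fold of at least 2. For PS/E2H against E2H mice, where 3 members passed, 1 passed with no filter, 5 with DESeq2, 1 with limma on log2(FPKM + 1) and 1 with a fold of at least 2, and 0 to 3 with 1 mouse left out (1 without E2H replicate 1 or 2 or PS/E2H replicate 1 or 3, and 0 without E2H replicate 3). For PS/E3H against E3H mice, where 4 passed, 1 met a fold of at least 2, and 2 to 7 passed with 1 mouse left out (2 without E3H replicate 1 and 7 without PS/E3H replicate 1). For PS/E4H against E4H mice, where 7 passed, 3 met a fold of at least 2, and 5 to 7 passed with 1 mouse left out. With the replicate block 3, 3, 5 and 7 members passed in the APOE2, APOE3 and APOE4 lines and over all lines. In that fit Mertk in PS/E3H (adjusted p = 0.0604) and Tyro3 and Gas6 in PS/E4H mice (adjusted p = 0.0670 and 0.0977) did not pass. Mice with the same number were not paired, since their deviations correlated at -0.120 to 0.0950. Against the parental lines direction reversed for 3 genes that did not pass. Cd36 in PS/E3H mice was at -0.26 with the replicate block and -0.31 to 0.52 with 1 mouse left out (-0.31 without PS/E3H replicate 4). Cd93 in PS/E3H mice was at -0.28 with the replicate block, -0.023 and -0.082 with limma on FPKM and pseudocounts of 1 and 0.1, and -0.22 to 0.20 with 1 mouse left out (-0.027, -0.071 and -0.22 without E3H replicate 2, PS/E3H replicate 2 and PS/E3H replicate 4). Cd93 in PS/E2H mice was at -0.35 to 0.33 (0.33 without E2H replicate 1 and 0.032 without PS/E2H replicate 2), and over all lines at -0.16 to 0.027 (0.027 without E2H replicate 1). Mfge8 in PS/E2H mice was at -0.40 to 0.056 (0.056 without E2H replicate 2). The cause of these changes was not tested. Between APOE lines and in the interactions 0 members passed under every alternative run (0 to 0 with a mouse left out), and with 1 mouse left out the sign changed for 31 of 60 and 13 of 30 member values. The fit without the 3 mice richest in monocyte and neutrophil markers was chosen after seeing the data. Precision was limited by 3 or 4 mice a group and, for Msr1, by 0 to 31 counts in parental mice.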
